A study of Mus musculus with 12 samples.

Results

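The enzymes described here attach a water-soluble group to steroids, bile acids, bilirubin, fatty aldehydes and foreign compounds. They comprise the UDP-glycosyltransferases (UGT), the cytosolic sulfotransferases (SULT) and the glutathione S-transferases (GST) of the alpha, kappa, mu, omega, pi and theta classes. Members were taken by symbol (Ugt, Sult or Gst, the last with class letter a, k, m, o, p or t, followed by a digit). Of 22276 symbols in the series 65 matched, 18 of these stayed below 1 CPM (counts scaled to the total of the library) in all 12 libraries, and Sult1e1, the estrogen sulfotransferase, was left out by name. The remaining 46 members comprise 19 of 22 UGT, 7 of 21 SULT and 20 of 22 GST symbols. Just inside the level limit lay Ugt1a8, whose highest level was 1.00 CPM, and just outside it Ugt2a2, at 0.474 CPM.

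UGT enzymes transfer a sugar, in most members glucuronic acid from UDP-glucuronate, to a hydroxyl, carboxyl or amine group of their substrate in the endoplasmic reticulum. SULT enzymes transfer sulfate from 3'-phosphoadenosine-5'-phosphosulfate (PAPS) in the cytosol, and GST enzymes join reduced glutathione to electrophiles such as 4-hydroxynonenal. Liver is the tissue best known for all of them, and several of its members are known targets of the nuclear receptors CAR and PXR or of the transcription factor NRF2, or differ in level between male and female mice.

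The libraries came from male C57BL/6J mice with a floxed glucocorticoid receptor gene, Nr3c1. The mice carried no Cre (GRf/f) or a Cre driven by the skeletal muscle actin promoter Acta1, which removes the receptor in skeletal muscle (GRmKO). Starting at the age of 8 weeks, 100 µg/mL corticosterone (CORT), the main glucocorticoid of rodents, was given for 4 weeks in drinking water that held 1% ethanol, and control mice received the ethanol alone (vehicle). Liver, gonadal white adipose tissue (WAT) and gastrocnemius were sampled, and each of the 12 combinations of tissue, genotype and treatment was 1 library made from RNA pooled from 3 mice. No group had a replicate, so no difference between groups could be tested. A member or gene was called when it differed at least 2-fold on the scale log2(CPM + 0.5), among genes at 1 CPM or more in at least 1 of the 4 libraries of the tissue. "Rose" and "fell" are used of called genes only. Each bracketed range is the 95% interval that counting error gives for the ratio, on the same log2 scale where it follows a log2 change, is computed without the pseudocount of 0.5, and covers neither the spread between mice nor the assignment of reads to near-identical transcripts.

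The libraries held 19394572 to 20940660 estimated counts, so that 3 counts, the smallest level taken as detected, amounted to 0.143 to 0.155 CPM. Nr3c1 stood at 41.2% of the GRf/f level in vehicle-treated GRmKO gastrocnemius and at 39.2% in the CORT-treated one, and at 81.5% to 109.7% in liver and gonadal WAT. Summed hepatocyte markers reached 113199 to 187418 CPM in liver, summed adipocyte markers 48041 to 69690.1 CPM in gonadal WAT and summed skeletal muscle markers 103112 to 141891 CPM in gastrocnemius. In bulk tissue fewer cells of a type and less RNA per cell cannot be told apart.

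The sequences below are shown because they belong to members of the same gene clusters whose responses in liver went apart or together. Ugt1a9, Ugt1a10 and Ugt1a1 are spliced from own first exons to shared later exons of a common locus (chromosome 1, 88055388 to 88220002, GRCm38), yet with CORT the first and the last of them went in opposite directions, and their promoters are therefore set side by side. Ugt2b37 and Ugt2b38 lie in the Ugt2 cluster (chromosome 5, 86889767 to 87424203), and both fell in GRf/f mice. Each line gives the 250 bases before the RefSeq start on GRCm38.p6, 5' to 3'. Capitals mark TGA and TGA with 4 unspecified bases between them (the TGA pair), searched on both strands. This loose pattern fixes only part of a pair of nuclear receptor half-sites, and a match does not identify a binding site. The windows are chr1:88070529-88070778 for Ugt1a9, chr1:88055161-88055410 for Ugt1a10 and chr1:88211709-88211958 for Ugt1a1 on the plus strand, and chr5:87254789-87255038 for Ugt2b37 and chr5:87424204-87424453 for Ugt2b38 on the minus strand.
Ugt1a9: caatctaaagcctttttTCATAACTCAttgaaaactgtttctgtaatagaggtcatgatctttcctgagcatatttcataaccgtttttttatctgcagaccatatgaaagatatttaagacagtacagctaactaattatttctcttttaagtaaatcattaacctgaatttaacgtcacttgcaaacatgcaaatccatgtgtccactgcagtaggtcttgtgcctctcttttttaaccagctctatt
Ugt1a10: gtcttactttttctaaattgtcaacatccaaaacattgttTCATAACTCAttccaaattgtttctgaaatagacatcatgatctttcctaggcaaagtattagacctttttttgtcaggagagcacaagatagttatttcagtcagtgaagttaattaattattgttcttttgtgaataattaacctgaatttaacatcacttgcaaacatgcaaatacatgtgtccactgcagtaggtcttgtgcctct
Ugt1a1: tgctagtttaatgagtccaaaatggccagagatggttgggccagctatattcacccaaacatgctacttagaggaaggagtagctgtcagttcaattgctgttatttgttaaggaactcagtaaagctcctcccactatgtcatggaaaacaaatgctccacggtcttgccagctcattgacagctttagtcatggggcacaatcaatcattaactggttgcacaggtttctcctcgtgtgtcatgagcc
Ugt2b37: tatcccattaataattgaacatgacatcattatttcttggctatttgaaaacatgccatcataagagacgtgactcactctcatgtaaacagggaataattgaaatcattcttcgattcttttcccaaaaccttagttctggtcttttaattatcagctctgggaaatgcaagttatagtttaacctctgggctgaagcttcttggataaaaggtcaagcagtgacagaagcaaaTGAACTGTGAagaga
Ugt2b38: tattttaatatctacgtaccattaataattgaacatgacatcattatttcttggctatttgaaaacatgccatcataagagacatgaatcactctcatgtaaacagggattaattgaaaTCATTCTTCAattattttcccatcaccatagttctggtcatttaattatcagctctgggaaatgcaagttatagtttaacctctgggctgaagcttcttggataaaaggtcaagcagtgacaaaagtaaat

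The Ugt1a9 and Ugt1a10 windows were identical at 68.9% of aligned positions and held the same match, starting 233 bases before the start in Ugt1a9 and 210 bases before it in Ugt1a10. Ugt1a9 and Ugt1a1 were identical at 47.4%, and the Ugt1a1 window held no match. The Ugt2b37 and Ugt2b38 windows were identical at 84.8% but held their matches at different places, 15 and 131 bases before the start. RefSeq windows of 250 bases before to 50 bases after a start were found for 41 of the 46 members. Among the 20 windows of the 16 members called with CORT in liver that had one, 7 held the TGA pair. In 1 (Sult2a8) lay ACANNNTGT, part of the spaced half-sites of a glucocorticoid response element. TGACNNNGC, the core of the antioxidant response element, was held by 0. Of all 32851 windows 15.9%, 6.85% and 12.4% held these motifs, and of the windows of genes tested in liver 10.9%, 4.38% and 14.1%. Some of the 20 windows are alternative starts of the same gene or near copies of each other, so they are not independent.

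To ask how CORT and the muscle deletion bear on conjugation, liver was examined first, where 43 members were tested. With CORT 9 members rose and 7 fell in GRf/f mice, and 6 rose and 4 fell in GRmKO mice. These are 20.9% and 16.3% of the members in GRf/f mice, beside 7.54% and 7.71% of all 11627 genes tested, and 14.0% and 9.30% in GRmKO mice, beside 4.45% and 4.35%. The median log2 change of the members was 0.05 and 0.09, close to that of all genes (0.00 and 0.05). In GRf/f mice each family held rises and falls. Of the 9 that rose in GRf/f mice and the 6 that rose in GRmKO mice 6 were shared, and of the 7 and 4 that fell 2 were shared. The overlap among all genes was not counted, so these numbers have no background. Sult2a7 reached 1 CPM only in CORT livers and Ugt2b37 only in vehicle livers, so the level filter fixed their direction. The other 3 members (Ugt1a8, Ugt8a and Gsto2) stayed below 1 CPM in all 4 livers.

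**Figure D1:**
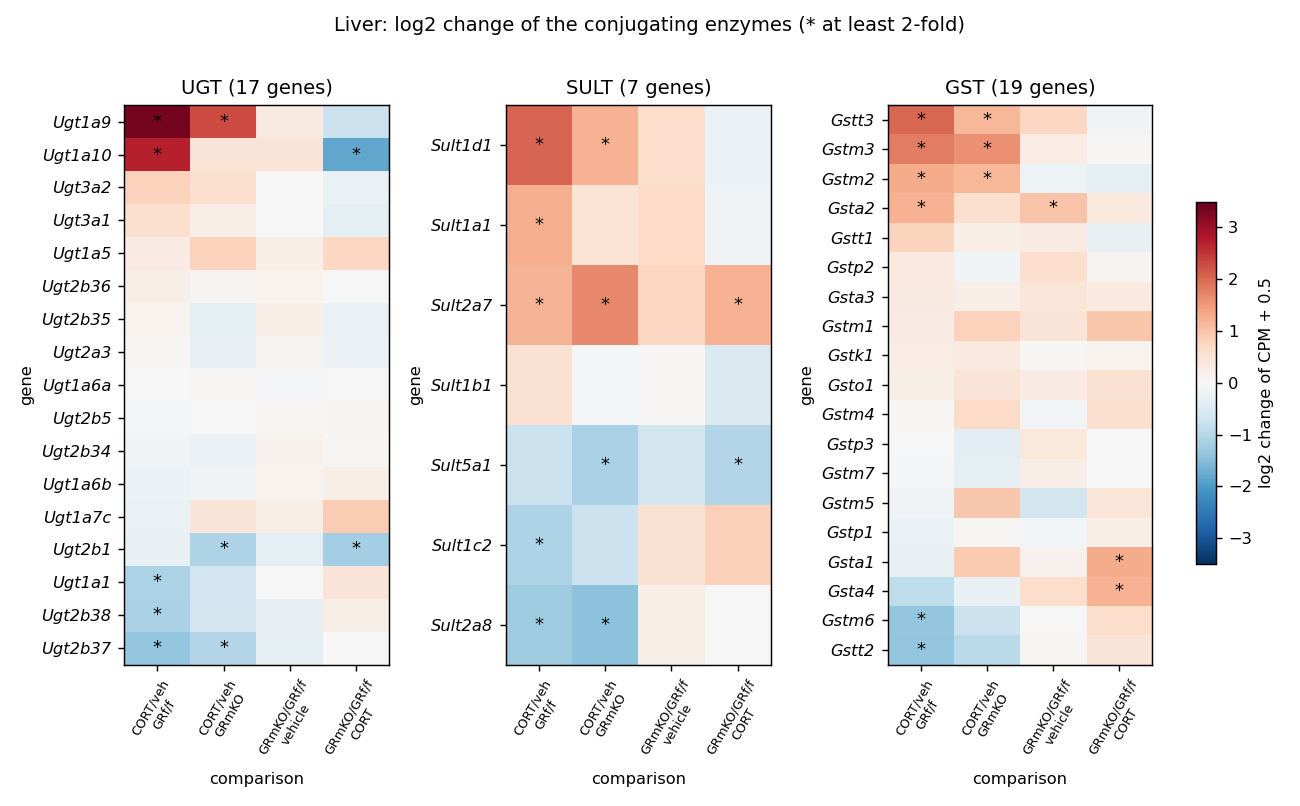
Log2 change of CPM + 0.5 of the 43 members tested in liver (colour), by family, for CORT against vehicle in GRf/f and GRmKO mice and for GRmKO against GRf/f mice under vehicle and CORT, with asterisks at changes of at least 2-fold. Rises and falls stand in each family, led by Ugt1a9 at 3.36 in GRf/f mice, and 1 asterisk stands in the column of GRmKO against GRf/f mice under vehicle.

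Among the UGT genes 2 of 17 rose (Ugt1a9 and Ugt1a10) and 3 fell (Ugt1a1, Ugt2b37 and Ugt2b38) with CORT in GRf/f liver. Ugt1a9, which conjugates phenols, stood at 38.8 CPM in vehicle-treated GRf/f, 402 CPM in CORT-treated GRf/f, 48.6 CPM in vehicle-treated GRmKO and 237 CPM in CORT-treated GRmKO liver. It rose by 3.36 (3.27 to 3.48) in GRf/f mice, the largest rise of any member in liver, and by 2.28 (2.19 to 2.39) in GRmKO mice. Both CORT libraries lay above both vehicle libraries. Ugt1a10 stood at 1.09, 10.03, 1.67 and 2.49 CPM in the same order of libraries. The CORT-treated GRf/f library was high and the others lay between 1.09 and 2.49 CPM, with a log2 change of 2.73 (2.56 to 3.88) in GRf/f mice and 0.46 (-0.08 to 1.23) in GRmKO mice.

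Ugt1a1, the enzyme of bilirubin glucuronidation, went the other way, with 666 CPM under vehicle and 307 CPM under CORT in GRf/f mice, and 661 and 418 CPM in GRmKO mice. It fell in GRf/f mice with a log2 change of -1.12 (-1.16 to -1.07), and its change in GRmKO mice, -0.66 (-0.70 to -0.62), was not called. Summed over the 8 members of the Ugt1a locus the level hardly moved, from 953 to 958 CPM in GRf/f mice (ratio 1.01, 0.985 to 1.03) and from 972 to 947 CPM in GRmKO mice (0.974, 0.955 to 0.994). The share of Ugt1a9 in that sum was 4.07% under vehicle and 41.9% under CORT in GRf/f mice, and 4.995% and 25.1% in GRmKO mice. The share of Ugt1a1 was 69.8% and 32.0% in GRf/f mice and 68.0% and 44.1% in GRmKO mice. CORT-treated GRf/f liver thus held more Ugt1a9 than Ugt1a1 counts, and the other 3 livers held more Ugt1a1. The phenol-conjugating Ugt1a6a kept 8.69% to 9.19% of the sum in all 4 livers. Since the later exons are common, 57.2% to 100% of the 100-base windows of each Ugt1a transcript occur in another one, and the division of counts between these members is an estimate. For Ugt1a6a all windows (100%) are shared, so its share above rests on no 100-base window of its own.

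The Ugt2 genes, whose enzymes act on steroids and bile acids, held the most abundant UGT transcripts. Per kilobase of transcript Ugt2b5 (617 CPM per kb), Ugt2b1 (429.8) and Ugt2b36 (367) led in vehicle-treated GRf/f liver, followed by Ugt1a1 (299). Ugt2b5 stood at 1147, 1117, 1189 and 1185 CPM and Ugt2b36 at 693, 795, 748 and 797 CPM in the 4 livers, with no log2 change beyond 0.20 in any comparison. Ugt2b1 stood at 1106 CPM under vehicle and 931 CPM under CORT in GRf/f mice and at 876 and 412 CPM in GRmKO mice. Its CORT-treated GRmKO library was low and the other three within 1106 to 876 CPM, and the log2 change with CORT was -1.09 (-1.13 to -1.05) in GRmKO mice, a fall, and -0.25 (-0.28 to -0.22) in GRf/f mice, not called. Ugt2b38 stood at 67.4, 30.3, 55.2 and 35.2 CPM and fell in GRf/f mice with a log2 change of -1.14 (-1.29 to -1.02), against -0.64 (-0.78 to -0.51) in GRmKO mice. Ugt2b37, whose promoter window resembles that of Ugt2b38 and which stayed below 10 CPM throughout, fell in both genotypes, from 2.15 to 0.537 CPM and from 1.64 to 0.545 CPM. The 8 Ugt2 members summed to 3879.8 CPM and 3730.4 CPM in GRf/f mice (ratio 0.961) and to 3829 and 3235 CPM in GRmKO mice (0.845). The Ugt3a genes, whose enzymes use sugars other than glucuronic acid, were 1.69-fold (1.64 to 1.73) and 1.41-fold (1.37 to 1.45) higher in sum under CORT without a call, with Ugt3a2 at 323, 566, 324 and 481 CPM.

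**Figure D2:**
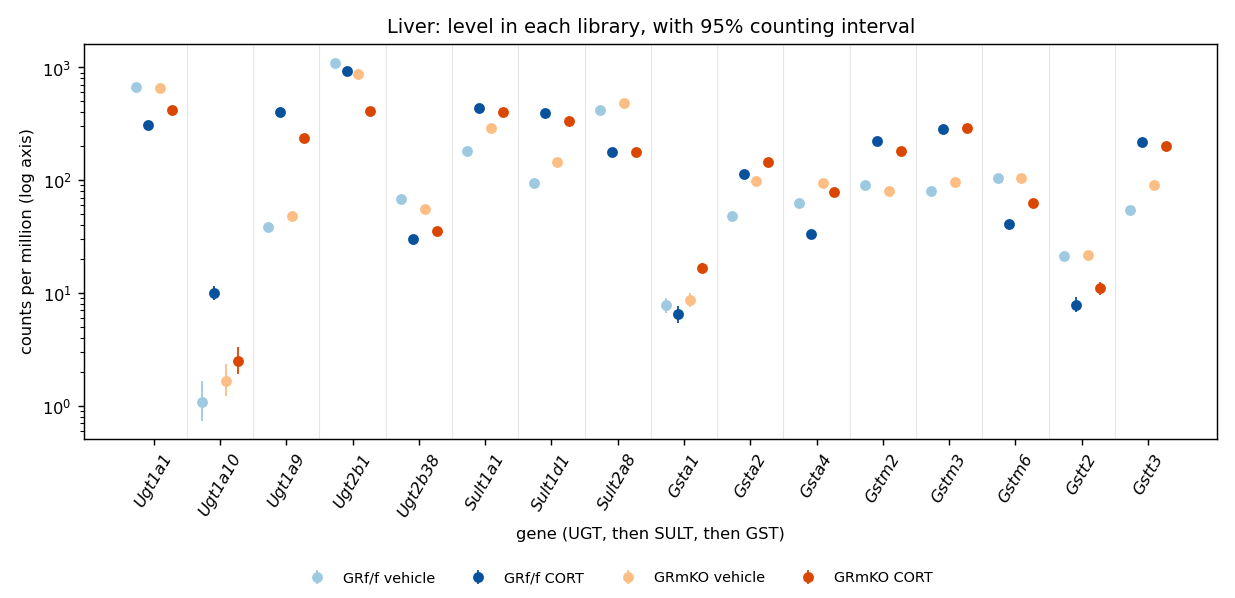
Level in CPM (log axis) of the 16 members that were called at least once in liver and reached 10 CPM, with 1 point for each of the 4 livers and its 95% counting interval. For Ugt1a9, Ugt1a10, Sult1d1, Sult1a1, Gsta2, Gstm2, Gstm3 and Gstt3 both CORT points lie above both vehicle points, and for Ugt1a1, Ugt2b38, Sult2a8, Gstm6 and Gstt2 both lie below.

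Among the SULT genes 3 of 7 rose and 2 fell with CORT in GRf/f liver, and 2 rose and 2 fell in GRmKO liver. Sult1d1 (chromosome 5, 87554645 to 87569027), which sulfates catecholamines, stood at 94.7, 391, 144 and 336 CPM in vehicle-treated GRf/f, CORT-treated GRf/f, vehicle-treated GRmKO and CORT-treated GRmKO liver. It rose in both genotypes, by 2.04 (1.97 to 2.12) and 1.22 (1.16 to 1.29). Sult1a1 (chromosome 7, 126672865 to 126676432), the main phenol sulfotransferase, stood at 180.0, 436, 289 and 404 CPM. Here both CORT libraries were higher than both vehicle libraries, but the vehicle level was higher in GRmKO mice, and the log2 change of 1.28 (1.22 to 1.33) in GRf/f mice was called while that of 0.48 (0.44 to 0.53) in GRmKO mice was not.

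Sult2a8 (chromosome 7, 14410686 to 14446769), a sulfotransferase of bile acids, fell in both genotypes. Its level was 419 CPM under vehicle and 177 CPM under CORT in GRf/f mice and 482 and 177 CPM in GRmKO mice, log2 changes of -1.24 (-1.30 to -1.19) and -1.44 (-1.50 to -1.39). Under CORT the 2 genotypes were level, with a log2 difference of -0.00. Its neighbour Sult2a7, at 0.382, 1.52, 0.962 and 4.16 CPM, rose in both. Sult1c2 (2.82, 1.07, 4.26 and 2.31 CPM) fell in GRf/f mice and Sult5a1 (8.28, 4.75, 5.14 and 2.08 CPM) in GRmKO mice, both from a few CPM. Sult1b1, which acts on thyroid hormones, stood at 25.1, 36.5, 26.0 and 25.5 CPM and was not called. Summed over the family the level was 1.44-fold higher with CORT in GRf/f mice (1.41 to 1.47) and 1.00-fold in GRmKO mice (0.981 to 1.02).

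The GST genes gave 4 rises and 2 falls of 19 with CORT in GRf/f liver and 3 rises and 0 falls in GRmKO liver. Gstt3, a theta class enzyme of small halogenated compounds (chromosome 10, 75774115 to 75781414), stood at 54.6, 219.7, 90.8 and 203 CPM in the 4 livers. It rose by 1.999 (1.92 to 2.10) in GRf/f and 1.16 (1.08 to 1.24) in GRmKO mice. Of its 100-base windows 23.9% are shared with the entry Gm20441. Gstt2, of the same cluster, went down instead, from 21.2 to 7.89 CPM in GRf/f mice, a log2 change of -1.37 (-1.70 to -1.16), and from 21.6 to 10.9 CPM in GRmKO mice, a log2 change of -0.95 (-1.22 to -0.75) that was not called. Gstt1 stood at 171, 291, 207 and 243 CPM without a call, and the 3 theta members together were 2.10-fold and 1.43-fold higher with CORT.

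Of the mu class (chromosome 3, 107895821 to 108044894) Gstm3 and Gstm2 rose in both genotypes. Gstm3 stood at 80.9, 284, 96.6 and 292 CPM, with log2 changes of 1.80 (1.73 to 1.89) and 1.59 (1.52 to 1.67). Gstm2 stood at 90.4, 224, 80.6 and 179.8 CPM, with log2 changes of 1.30 (1.23 to 1.39) and 1.15 (1.07 to 1.24). For both genes the CORT libraries of the 2 genotypes lay near each other and well above the vehicle libraries. Gstm6 stood at 104, 40.6, 105 and 62.4 CPM and fell in GRf/f mice with a log2 change of -1.35 (-1.48 to -1.25). The abundant Gstm1 stood at 1919, 2329.6, 2605 and 4582 CPM, highest in CORT-treated GRmKO liver, with a log2 change with CORT of 0.28 (0.26 to 0.30) in GRf/f and 0.81 (0.80 to 0.83) in GRmKO mice. It supplied most of the mu class sum, which was 1.30-fold higher with CORT in GRf/f and 1.75-fold higher in GRmKO mice.

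Gstp1, the pi class enzyme and the most abundant member per kilobase (4633 CPM per kb in vehicle-treated GRf/f liver, ahead of Gstm1 at 1489), stood at 3804, 3228, 3561 and 3694 CPM. Its changes with CORT were -0.24 and 0.05, and 52.8% of its windows occur in another transcript. Of the alpha class, Gsta2 stood at 48.6, 114, 97.8 and 145 CPM, and the vehicle-treated GRf/f library was the low one. It rose with CORT in GRf/f mice by 1.22 (1.12 to 1.33), with a change of 0.56 (0.48 to 0.65) in GRmKO mice, and 35.0% of its windows occur in another transcript. Gsta3 stood at 623, 771, 833 and 982 CPM. Gsta4, the enzyme best known for 4-hydroxynonenal, stood at 62.4, 33.6, 94.97 and 78.7 CPM, lowest in CORT-treated GRf/f liver, with changes of -0.88 (-1.03 to -0.76) and -0.27 (-0.37 to -0.18). The family sum was 1.08-fold (1.07 to 1.09) higher with CORT in GRf/f mice and 1.34-fold (1.33 to 1.35) in GRmKO mice, and that of the UGT genes 1.03-fold (1.02 to 1.04) and 0.915-fold (0.907 to 0.923).

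GRmKO mice were then compared with GRf/f mice within each treatment. These comparisons use the same 4 livers as those above, so they are not independent of them. Under vehicle 1 of 43 members was higher in GRmKO liver and 0 were lower, beside 2.57% and 2.46% of all genes. The member was Gsta2, at a log2 difference of 1.00 (0.90 to 1.12), which fell under the 2-fold limit with other scalings of the libraries (0.98 and 0.97). The median of the members was 0.15, beside 0.03 for all genes. Under CORT 3 were higher and 3 lower, 6.98% each, beside 4.04% and 3.56% of all genes. Ugt1a10, Ugt2b1 and Sult5a1 were lower in GRmKO mice, with log2 differences of -1.82 (-2.47 to -1.55), -1.18 (-1.21 to -1.14) and -1.02 (-1.75 to -0.66). Gsta1 (16.6 against 6.44 CPM), Gsta4 (78.7 against 33.6 CPM) and Sult2a7 (4.16 against 1.52 CPM) were higher in GRmKO mice, with log2 differences of 1.30, 1.22 and 1.21. Of the windows of Gsta1 81.8% occur in another transcript, so its count depends on how shared reads were divided. Ugt1a9 was lower under CORT in GRmKO liver, at -0.76 (-0.81 to -0.71), without a call. Whether the response to CORT differed between the genotypes was not tested.

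Over all 4 comparisons 23 of the 43 members tested in liver were never called, and the matching share of all genes was not counted. The members never called were Ugt1a5, Ugt1a6a, Ugt1a6b, Ugt1a7c, Ugt2a3, Ugt2b5, Ugt2b34, Ugt2b35, Ugt2b36, Ugt3a1 and Ugt3a2, then Sult1b1, and then Gsta3, Gstk1, Gstm1, Gstm4, Gstm5, Gstm7, Gsto1, Gstp1, Gstp2, Gstp3 and Gstt1. The most abundant members of the UGT and GST families, Ugt2b5 and Gstp1, were thus among those without a call.

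Other genes of conjugation were examined by list. Of 4 genes of UDP-glucuronate supply 0 were called with CORT in either genotype, with the dehydrogenase Ugdh at 123 and 151 CPM in GRf/f mice and 133 and 187 CPM in GRmKO mice. Of 7 genes of sulfate and PAPS supply 0 were called in GRf/f liver, and in GRmKO liver the PAPS transporter gene Slc35b2 rose (10.1 to 23.9 CPM) and the PAPS synthase gene Papss2 fell (208 to 104 CPM). Of 7 genes of glutathione supply 1 fell in GRf/f mice (Chac1) and 0 were called in GRmKO mice. The rate-limiting Gclc stood at 174, 252, 183 and 228 CPM. Of 9 transporters of conjugates or their precursors 3 fell in GRf/f liver and 1 in GRmKO liver. Abcc3, which exports glucuronides to blood, stood at 151, 66.8, 152 and 100.4 CPM, and Slco1a1, an uptake carrier, at 239, 116, 171 and 70.0 CPM. Abcc4 was the third, at 1.86 CPM under vehicle and 0 under CORT in GRf/f mice. Of 5 other glutathione transferases Mgst3 and Ptges rose in GRf/f mice and 0 were called in GRmKO mice, and of 3 hydrolases of the reverse reactions Arsb rose in GRf/f mice and 0 in GRmKO mice.

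Of 8 known targets of CAR or PXR 4 rose and 1 fell in GRf/f liver, and 1 rose and 1 fell in GRmKO liver. Cyp2b10, the classical CAR target, stood at 3.30 CPM under vehicle and 877 CPM under CORT in GRf/f mice and at 6.10 and 362 CPM in GRmKO mice, rises of 7.85 and 5.78. Cyp3a11, the classical PXR target, stood at 1507, 6386, 2438 and 4194 CPM and rose in GRf/f mice by 2.08, against 0.78 in GRmKO mice. Cyp2c29 and Aldh1a7 rose in GRf/f mice too, and Cyp2c55 fell in both genotypes. CAR itself (Nr1i3) stood at 51.2, 87.3, 71.8 and 87.6 CPM and PXR (Nr1i2) at 48.8, 57.7, 56.2 and 49.4 CPM, neither called. Of 20 regulators 3 rose and 3 fell in GRf/f liver, and 2 rose and 1 fell in GRmKO liver. Those that fell were Ppara, Nr0b2 and Onecut1 in GRf/f mice and Bcl6 in GRmKO mice. Nfe2l2, which encodes NRF2, stood at 41.6, 118, 51.2 and 98.1 CPM, a rise in GRf/f mice and no call in GRmKO mice. Of 8 NRF2 targets 1 rose in each genotype, Nqo1 in GRf/f mice and Ephx1 in GRmKO mice.

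Of 7 genes known to be higher in female than in male mouse liver 6 rose with CORT in GRf/f mice and 7 in GRmKO mice, and of 14 known to be higher in males 8 and 10 fell and 0 rose. Listed genes below 1 CPM in every liver are left out of these counts. A gene low in male liver can pass that limit by rising, so the counts of rises do not describe the whole female list. Cyp17a1 stood at 1.53, 279, 3.87 and 248 CPM in these male livers and Cyp7b1 at 514, 113, 268 and 93.8 CPM. Slco1a1 and Cux2 stand in these lists as well as in those of the export and regulator genes. The part of these regulators and of the sex-biased programme in the changes of the members was not tested. Markers of other cells also moved in liver. All 6 Kupffer cell markers fell with CORT in GRf/f mice and 1 of 6 in GRmKO mice (summed 165, 49.0, 130.5 and 75.2 CPM), and 2 of 16 hepatocyte markers fell in GRf/f mice (Apoa1 and Tat) and 0 in GRmKO mice. Summed skeletal muscle markers were at or under 1.00 CPM in 3 livers and 7.16 CPM in the CORT-treated GRmKO one. Their part in the changes of the members was not tested.

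In gonadal WAT 25 members were tested, and Gstt3 fell there while it rose in liver, a difference between tissues that was not tested. With CORT 2 members rose and 4 fell in each genotype, 8% and 16% of those tested. Of the rises Ugt1a1 reached 1 CPM only in the CORT-treated GRf/f library and Ugt2b5 only in the CORT-treated GRmKO one. The level filter thus fixed their direction. Of all 13491 genes 6.77% rose and 9.9% fell in GRf/f mice and 4.91% and 7.06% in GRmKO mice. The 3 theta genes fell in both genotypes and Gsta3 rose in both, Gsta4 and Ugt1a1 passed the limit in GRf/f mice, and Gstp2 and Ugt2b5 in GRmKO mice. NOISeq, the method of the authors, called Gsta4 lower in both genotypes and did not call Gstp2 or Ugt2b5. It took only genes with counts in every library of the tissue, so it could not call Ugt1a1. Whether any response differed between the genotypes was not tested. Median log2 changes of the members were -0.09 and 0.03, beside -0.07 and -0.13 for all genes. With TMM or median-of-ratios factors the median of well-expressed genes in GRmKO mice shifted by 0.12 and 0.13, the shares of all genes became 5.97% and 5.69% with TMM factors, and Gstp2 was no longer called.

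Gstt2 stood at 20.5 CPM under vehicle and 1.68 CPM under CORT in GRf/f mice and at 21.5 and 7.93 CPM in GRmKO mice. It fell in both, by 3.27 on the log2 scale in GRf/f mice (-4.19 to -3.12) and by 1.38 in GRmKO mice (-1.71 to -1.17), and the former was the largest fall of any member in the 3 tissues. Gstt3 stood at 26.8, 6.12, 30.9 and 10.1 CPM, with changes of -2.04 (-2.42 to -1.84) and -1.56 (-1.84 to -1.37). Gstt1 (chromosome 10, 75783813 to 75798584) stood at 101, 30.9, 113 and 39.0 CPM, with changes of -1.70 (-1.84 to -1.58) and -1.52 (-1.66 to -1.42). In all 3 genes both CORT libraries lay below both vehicle libraries, and the summed theta level under CORT was 0.261 (0.241 to 0.282) and 0.345 (0.322 to 0.369) of that under vehicle. Gsta4 stood at 47.8, 19.0, 47.3 and 24.1 CPM and fell in GRf/f mice with a log2 change of -1.31 (-1.50 to -1.16), against -0.96 in GRmKO mice. Gstp2 stood at 13.2, 7.74, 15.7 and 7.46 CPM, with changes of -0.74 and -1.02.

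**Figure D3:**
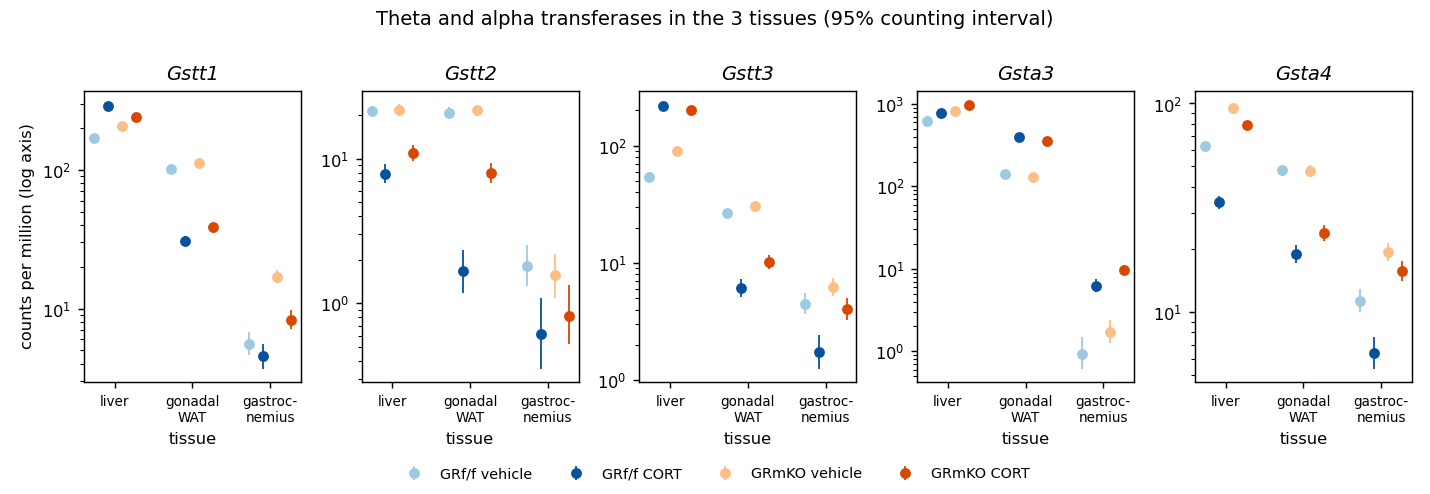
Level in CPM (log axes) of the theta class genes Gstt1, Gstt2 and Gstt3 and the alpha class genes Gsta3 and Gsta4 in the 4 libraries of each tissue, with 95% counting intervals, to be compared within a tissue. The 2 CORT points of Gstt3 lie above the vehicle points in liver and below them in gonadal WAT, and the CORT points of Gsta3 lie above the vehicle points in gonadal WAT and gastrocnemius.

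Gsta3 (chromosome 1, 21240589 to 21265661), an alpha class enzyme best known in mice for detoxifying the epoxide of aflatoxin, stood at 142, 394, 128 and 352 CPM in gonadal WAT. It rose with CORT in both genotypes, by 1.46 (1.40 to 1.53) and 1.45 (1.39 to 1.52). The phenol sulfotransferase Sult1a1 was the leading SULT gene at 189, 336, 256 and 401 CPM, 0.83 and 0.65 higher on the log2 scale with CORT and not called. Sult5a1 stood at 3.01, 1.37, 2.10 and 1.36 CPM. The Ugt1a genes led the UGT family, with Ugt1a6a at 53.2, 81.6, 68.7 and 83.8 CPM, Ugt1a6b at 35.5, 52.9, 65.0 and 56.9 CPM and Ugt1a7c at 27.8, 44.2, 28.8 and 44.8 CPM. None of these was called. Ugt1a1 was at 0 counts in the vehicle-treated GRf/f library and at 1.05 CPM in the CORT-treated one, at least 6.97-fold higher when 3 counts are taken as the floor of the vehicle library, and stood at 0.315 and 0.951 CPM in GRmKO mice. Ugt2b5 rose in GRmKO mice from 0.101 to 1.19 CPM. In the same 2 libraries the median Ugt2 member went from 0.0191% to 0.0579% of its liver level and the median hepatocyte marker from 0.0377% to 0.0881%, and their part in the rise was not tested. The abundant Gstm1 (759.9, 925, 914 and 1058 CPM), Gstm2 (285, 237, 244 and 295 CPM) and Gstp1 (311, 227, 288 and 275 CPM) were among the 17 members tested there that were never called. The others were Gstk1, Gstm4, Gstm5, Gstm6, Gstm7, Gsto1, Gsto2, Ugt1a8 and Ugt3a2 besides the Ugt1a6, Ugt1a7c, Sult1a1 and Sult5a1 genes above. The matching share of all genes was not counted.

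**Figure D4:**
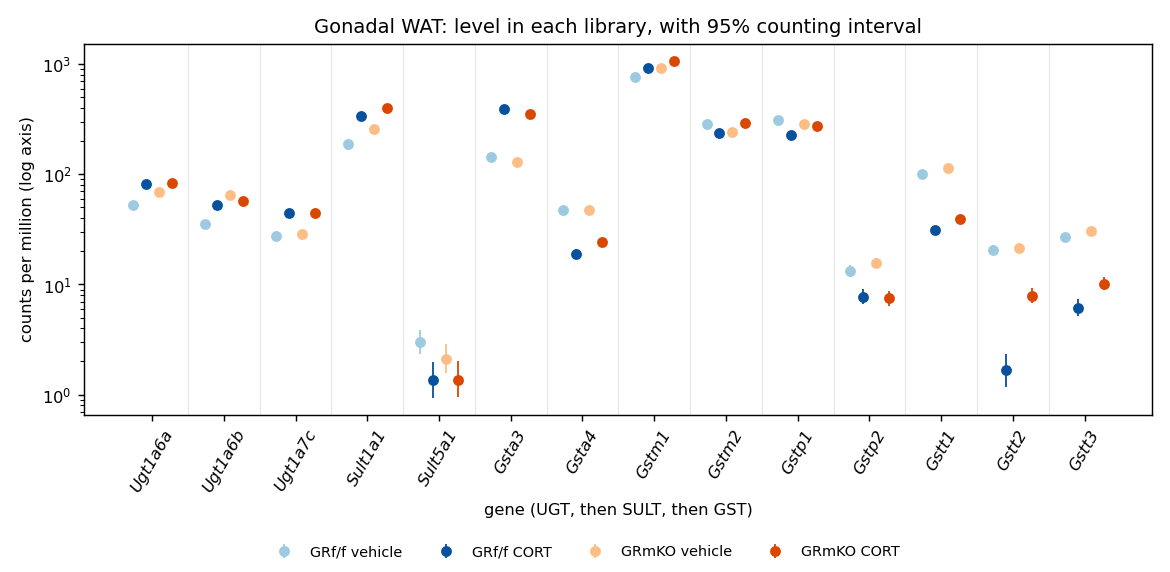
Level in CPM (log axis) of 14 members in the 4 libraries of gonadal WAT, with 95% counting intervals. Among the called genes the CORT points of Gstt1, Gstt2, Gstt3, Gsta4 and Gstp2 lie below the vehicle points and those of Gsta3 above them, and Gstt2 is the only gene shown whose 2 CORT points lie over 2-fold apart.

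GRmKO and GRf/f mice gave 0 calls in either direction under vehicle in gonadal WAT, beside 1.95% and 2.33% of all genes. Under CORT 1 member, Gstt2, was higher in GRmKO mice, by 1.95 (1.71 to 2.84), and 0 were lower, beside 2.62% and 2.27%. The median of the members was 0.08 under vehicle and 0.19 under CORT, beside 0.03 and -0.04. These comparisons share their libraries with those of CORT.

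Genes of other cells moved with CORT in gonadal WAT. Summed macrophage markers stood at 614 and 1586 CPM in GRf/f mice and 812 and 1561 CPM in GRmKO mice, with 4 and 2 of 5 higher. Summed adipocyte markers stood at 65232, 48041, 69690.1 and 54238 CPM, and 5 of 6 B and T cell markers fell in each genotype. Their part in the changes of Gsta3 and the theta genes was not tested. Markers of epididymis and testis, which lie beside this depot, were at or under 3 counts, except Adam7 at 1.10 CPM in the vehicle-treated GRf/f library. Of 9 NRF2 targets 3 rose in both genotypes, the heme oxygenase gene Hmox1 (50.1, 274, 60.2 and 195 CPM), the sulfiredoxin gene Srxn1 (31.9, 75.8, 31.5 and 66.8 CPM) and the cystine carrier gene Slc7a11. Of 8 genes of glutathione supply Slc7a11 rose and Chac1 and Oplah fell in both, while Ggt1 fell in GRf/f and rose in GRmKO mice. Of 6 CAR or PXR targets 3 rose in GRf/f mice, and in GRmKO mice 4 rose and 1 fell. None of 4 genes of UDP-glucuronate supply or of 6 of sulfate and PAPS supply was called with CORT in either genotype. Of 5 exporters Abcg2 fell in both genotypes and Abcb1a in GRmKO mice, and of 15 regulators 0 rose and 3 fell in GRf/f mice, and 1 rose and 1 fell in GRmKO mice. Of 7 other glutathione transferases Mgst2 fell and of 3 hydrolases Gusb rose in GRf/f mice, with 0 calls in GRmKO mice.

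In gastrocnemius the members stood low, and 26 were tested. The leading genes were Gstm1 (266, 211, 327 and 272 CPM), Gstp1 (209, 178, 257 and 257 CPM) and Gstp2 (74.6, 61.1, 147 and 144 CPM), and Sult1a1 led its family at 26.3, 22.2, 40.5 and 29.8 CPM. With CORT 3 members rose and 2 fell in GRf/f mice and 6 rose and 0 fell in GRmKO mice, 11.5% and 7.69% in the former and 23.1% higher in the latter. Of all 12998 genes 4.63% rose and 6.44% fell in GRf/f mice and 2.74% and 6.92% in GRmKO mice. Of the rises in GRmKO mice Gstm3, Sult1d1, Ugt1a9 and Ugt2b36 reached 1 CPM only in the CORT-treated GRmKO library. Ugt1a6a reached it only in CORT libraries, Ugt1a6b only in the CORT-treated GRf/f library and Gstt2 only in vehicle libraries. The level filter thus fixed the direction of these members, and the shares do not measure an excess. Medians were 0.02 and 0.00 for the members and -0.09 and -0.10 for all genes. Other scalings shifted the median of well-expressed genes by 0.08 and 0.11 in GRf/f mice and by 0.15 and 0.14 in GRmKO mice, and the count in GRf/f mice became 3 higher and 1 lower, Gstt2 being lost. With TMM factors 7 were higher in GRmKO mice, Gstm4 being gained at 1.00.

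Gsta3, named after its values were seen since it stayed below 10 CPM, rose in both genotypes as it did in gonadal WAT, from 0.935 to 6.23 CPM and from 1.72 to 9.77 CPM, by 2.23 (1.998 to 3.48) and 2.21 (1.96 to 3.05). NOISeq called Gsta3 in GRmKO mice only. Of the members with counts in every muscle library it called no other with CORT. Adipocyte markers moved in these muscles too. Of 10 such markers 6 rose and 1 fell in GRf/f mice and 5 rose in GRmKO mice, among them Adipoq (14.6, 63.0, 16.8 and 48.2 CPM), while their sum was lower with CORT in both genotypes (3209, 2689.8, 5362 and 5074 CPM). Their part in the level of Gsta3 was not tested. Ugt1a6a was at 0 counts in both vehicle libraries and at 1.42 and 2.15 CPM in the CORT libraries of GRf/f and GRmKO mice, at least 9.36-fold and 14.4-fold higher against a floor of 3 counts. Ugt1a6b was at 0 in 3 libraries and at 1.06 CPM in the CORT-treated GRf/f one. These 2 genes are near copies, so the split between them is uncertain.

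More members were higher than lower in GRmKO against GRf/f muscle, in comparisons that share their libraries with those of CORT. Under vehicle 4 members were higher (Gstt1, Ugt1a7c, Ugt2b36 and Ugt2b5) and 0 lower, 15.4% of the members beside 6.68% and 4.36% of all genes. Under CORT 10 were higher and 2 lower, 38.5% and 7.69%, beside 6.19% and 6.72%. Of these Gstm3, Sult1d1, Ugt1a9, Ugt2b1, Ugt2b36 and Ugt2b5 reached 1 CPM only in the CORT-treated GRmKO library. Ugt1a6b reached it only in the CORT-treated GRf/f library. The level filter thus fixed the direction of these members, and the shares under CORT do not measure an excess. NOISeq called Gsta4 and Gstp2 higher under CORT. The medians were 0.30 and 0.57, beside 0.08 and 0.03. Gstt1 stood at 5.57 and 16.9 CPM under vehicle in GRf/f and GRmKO mice, a difference of 1.52 (1.28 to 1.92), and at 4.55 and 8.35 CPM under CORT. Gstp2 differed by 0.98 under vehicle and 1.23 (1.14 to 1.34) under CORT, where it was called, and 54.6% of its 100-base windows occur in another transcript. Gsta4 stood at 11.4 and 19.4 CPM under vehicle and 6.41 and 15.7 CPM under CORT, a difference of 1.23 (0.99 to 1.61). Ugt1a7c stood at 0.778 and 2.67 CPM under vehicle and 0.840 and 1.19 CPM under CORT. Gstt3 (4.48, 1.75, 6.27 and 4.03 CPM in the 4 muscles) and Gstm4 (5.75, 3.69, 4.82 and 9.18 CPM) were higher in GRmKO mice under CORT by 1.01 and 1.21, the former by less than 2-fold (0.99) with median-of-ratios factors. The median difference of the 15 GST genes under CORT was 0.61, beside 0.03 for all genes. Sult5a1 (2.58 against 0.819 CPM) and Ugt1a6b were the members lower in GRmKO mice under CORT. Ugt8a, which makes the galactolipid of myelin, stood at 2.76, 2.42, 2.45 and 2.21 CPM and was not called.

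Several of the members called between genotypes in muscle are abundant in liver, and hepatocyte markers were higher in the same libraries. Ugt2b36 was at 0 and 0.0516 CPM in GRf/f muscle under vehicle and CORT and at 0.550 and 2.21 CPM in GRmKO muscle. Ugt2b1 stood at 0.0503 and 0.0515 CPM in GRf/f and at 0.60 and 1.18 CPM in GRmKO muscle. Sult1d1 and Ugt1a9 reached 1.13 CPM each in CORT-treated GRmKO muscle and 0.0515 CPM or less in the other three. Summed hepatocyte markers stood at 45.5 and 50.8 CPM in GRf/f muscle and at 154 and 441 CPM in GRmKO muscle under vehicle and CORT. Of 16 such markers 15 were higher in GRmKO muscle under vehicle and 16 under CORT, and albumin (Alb) stood at 4.13, 7.47, 56.4 and 198 CPM in the order GRf/f vehicle, GRf/f CORT, GRmKO vehicle and GRmKO CORT. In CORT-treated GRmKO muscle the median Ugt2 member reached 0.278% of its level in liver and the median hepatocyte marker 0.232%, and in vehicle-treated GRmKO muscle 0.0659% and 0.0752%. In GRf/f muscle both medians were at or below 0.00762%. The part of hepatocyte transcripts in the genotype differences and in the CORT changes of the members was not tested. Summed adipocyte markers, given above, were also higher in GRmKO than in GRf/f muscle under each treatment. Their part in the genotype differences was not tested.

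**Figure D5:**
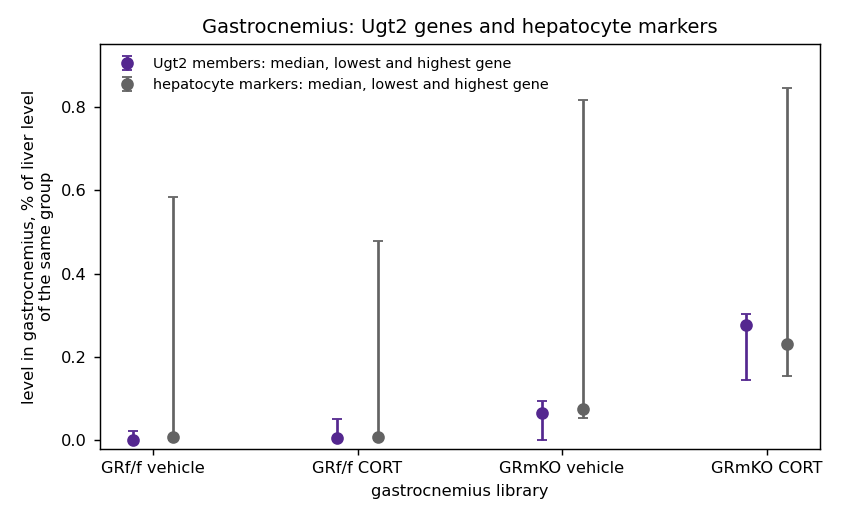
Level of the Ugt2 members and of 16 hepatocyte markers in each gastrocnemius library as a percentage of the level in the liver library of the same genotype and treatment, with points at the median gene and bars from the lowest to the highest gene. Both medians are highest in CORT-treated GRmKO muscle, at 0.278% and 0.232%.

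Macrophage markers summed to 348 CPM in vehicle-treated GRmKO muscle and to 89.5 to 132 CPM in the others. The part of macrophage transcripts in the genotype differences of the members was not tested. Of the other lists in gastrocnemius, 0 of 4 genes of UDP-glucuronate supply and 0 of 6 of sulfate and PAPS supply were called with CORT. Of 7 genes of glutathione supply 1 fell in GRf/f mice (Chac1) and 3 rose in GRmKO mice (Gss, Chac1 and Gls2). Of 8 NRF2 targets 1 rose in GRf/f mice (Srxn1) and 0 in GRmKO mice. The CAR or PXR targets, 5 tested, gave 2 rises in GRf/f and 3 in GRmKO mice, the latter with the liver genes Cyp3a11 and Cyp2c29. Of 5 exporters and 3 hydrolases 0 were called with CORT, of 6 other glutathione transferases Mgst1 rose in GRf/f mice and Hpgds fell in GRmKO mice, and of 14 regulators 1 fell in GRf/f mice, and 1 rose and 1 fell in GRmKO mice.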

How the data were processed

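RNA of liver, gonadal WAT and gastrocnemius was sequenced as 12 libraries, 1 per tissue, genotype and treatment, each pooled from 3 mice. The authors deposited estimated counts made with Salmon 1.2.1 against protein-coding transcripts of GENCODE M20 (GRCm38), imported with tximport (lengthScaledTPM) in R 3.5.0, with the most abundant entry kept for a duplicated symbol. Whether an entry sums all transcripts of its gene was not settled. Near-identical transcripts share reads, so their split is an estimate.

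From these counts CPM was computed over the library total, and log2 changes with a pseudocount of 0.5 CPM. With 1 library per group no test was possible, and a gene was called at 2-fold or more among genes at 1 CPM or more in at least 1 library of the tissue. Counting intervals were 95% Clopper-Pearson for ratios and Wilson for levels, and cover counting error only. Python 3.11.15 with numpy 2.4.6, pandas 2.3.3 and scipy 1.17.1 and R 4.3.3 with edgeR 4.0.16 (TMM factors only) were used, and the scripts were tested on simulated data. Alternatives were TMM and median-of-ratios factors, pseudocounts of 0.1 and 1 CPM, no level filter or 5 CPM, a 1.5-fold limit, NOISeq as the authors set it, and family sums without the leading member. Promoters and starts are from RefSeq (GRCm38.p6).

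Members named with all values were those called in a tissue that reached 10 CPM (at most 8 in gonadal WAT and gastrocnemius) and the 3 most abundant of each family. The members and gene lists were chosen with earlier results of these data known. Locus sums, the companion genes given with values and members of gastrocnemius below 10 CPM outside that rule were chosen after their values were seen. No columns of other samples were present (0). Some genes of the lists are counted but not reported here by name.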

Additional observations from a re-analysis of the deposited data

Results flagged for a closer look

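Gstt3 moved in opposite directions between tissues with CORT in GRf/f mice, with log2 changes of 1.999 in liver, -2.04 in gonadal WAT and -1.15 in gastrocnemius, and in GRmKO mice, with 1.16 in liver and -1.56 in gonadal WAT. Ugt1a1 changed with CORT in GRf/f mice by -1.12 in liver and 1.63 in gonadal WAT, where its vehicle library held 0 counts and the size therefore depends on the pseudocount. Ugt2b1 differed between GRmKO and GRf/f mice under CORT by -1.18 in liver and 1.61 in gastrocnemius, where it stood at 0.0515 and 1.18 CPM and hepatocyte markers were higher in the GRmKO library. Each value compares 1 library with 1 other, and the differences between tissues were not tested.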

How the results depend on the processing

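No paired analysis was possible because each group holds 1 library, and no library could be left out. Of 184 log2 changes of the named members 0 that were called changed sign under either scaling or pseudocount. With TMM and median-of-ratios factors 9 and 8 uncalled ones did, the largest of them 0.12 in size, and 52 and 54 values moved by more than their counting error. With a 1.5-fold limit the members called became 20 (from 10) for CORT in GRmKO liver, 8 (from 1) and 12 (from 6) for genotype in liver under vehicle and CORT, 12 (from 6) for CORT in WAT of each genotype, 3 (from 0 and from 1) for genotype in WAT under vehicle and CORT, and 13 (from 6) for CORT and 10 (from 4) for genotype under vehicle in GRmKO gastrocnemius. For genotype in liver under vehicle the count was 0 with TMM or median-of-ratios factors or a pseudocount of 1 CPM and 2 with 0.1 CPM. A pseudocount of 0.1 CPM gave 1 and 2 for genotype in WAT under vehicle and CORT, and 1 CPM gave 3 (from 5) for CORT in GRf/f gastrocnemius and 2 (from 4) for genotype under vehicle there. Among genes at 5 CPM or more gastrocnemius gave 2 and 1 for CORT in GRf/f and GRmKO mice and 1 and 4 (from 12) for genotype under vehicle and CORT, and NOISeq gave 0, 1, 2 and 2, and 0 for genotype in WAT under CORT. Without its leading member the SULT sum was 1.11-fold and 0.826-fold and the GST sum 1.34-fold and 1.58-fold with CORT in GRf/f and GRmKO liver, and the UGT sum 1.04-fold and 0.891-fold. In GRmKO liver TMM factors gave 0.874, 0.956 and 1.28 and median-of-ratios factors 0.879, 0.961 and 1.29 for UGT, SULT and GST. Causes of these shifts were not tested. Most gastrocnemius calls rest on a few CPM, where 1 library of pooled RNA gives no measure of the spread between mice.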
